A study of Mus musculus with 10 samples.

Results

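Astrocyte nuclei from dissected tissue of the mouse paraventricular thalamus (PVT) and the regions around it were divided by whether a *Gfap* transcript was captured. The paper assigned part of the neurons of this tissue to neighbouring regions, so the astrocyte nuclei cannot be taken as those of the PVT alone. A nucleus was Gfap-positive with at least 1 *Gfap* UMI (unique molecular identifier, a count of captured RNA molecules) and Gfap-negative with 0, and only nuclei that the authors' cluster names call astrocytes, with 2000 to 8000 UMIs in all, entered. This gave 212 Gfap-positive and 4052 Gfap-negative nuclei, together 4264 of the 5302 astrocyte nuclei and of the 20503 nuclei in the series. *Gfap* chose the groups, so its own values are a description and it was left out of every comparison.

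Both groups came from the same 10 libraries of C57BL/6J mice aged 12 weeks, without a transgene or treatment in the labels, so the levels of other genes were compared within each library. The sample labels give the sex for 6 female libraries, and the other 4 are male by the deposited metadata. According to the methods 4 mice were pooled for each sample, with 4 biological replicates in all, so such a library stands for a pool and not for 1 animal. How the further libraries of the 10 were pooled is not stated. The sets also differ in sequencing depth and in the gene annotation behind the counts, so sex cannot be told apart from these. In all, 20 barcodes occurred in more than 1 library, in 40 nuclei.

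Astrocytes take up glutamate and potassium around synapses, hold water channels on the endfeet that contact vessels, and supply neurons with glutamine. GFAP is the intermediate filament protein by which astrocytes are most often stained, yet many astrocytes of the grey matter, and of the thalamus in particular, hold little of it. *Gfap* is transcribed more strongly in astrocytes of white matter and of the brain surface, and after injury.

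Each of the 10 astrocyte markers examined, *Gfap*, *Agt*, *A2m*, *Aqp4*, *Slc1a2*, *Slc1a3*, *Gja1*, *Aldh1l1*, *Slc4a4* and *Ntsr2*, had its highest level over the nuclei of 2000 to 8000 UMIs in astrocytes. *Agt* stood at 1222 CPM (UMIs of the gene per 1000000 UMIs) in astrocytes and at most 166 CPM in another cell type, and *Gfap* at 25.4 CPM in astrocytes and at most 11.4 CPM, in ependymal cells. *Gfap* was therefore a sparse transcript, with 388 UMIs in all 4264 astrocyte nuclei. Of the Gfap-positive nuclei 126 held 1 UMI, the lowest number that the rule admits, 49 held 2, 16 held 3, 8 held 4, 7 held 5 and 6 held more, up to 16.

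At least 1 *Gfap* UMI was found in 4.97% of the astrocyte nuclei (95% exact binomial interval 4.34 to 5.67%, which covers counting error only). In neurons, which should lack the gene, the share was 0.94% (0.63 to 1.35%) at a higher median depth, 5330 against 3290 UMIs. It was 0.721% in oligodendrocytes, 0.555% in microglia and 1.20% in OPCs, while ependymal and endothelial nuclei had wider intervals, 3.23% (1.31 to 6.53%) of 217 nuclei and 4.23% (0.88 to 11.9%) of 71 nuclei. In fibroblasts 0 of 87 nuclei held a *Gfap* UMI (0 to 4.15%). At 2000 UMIs per nucleus the shares were 3.33% in astrocytes and 0.486% in neurons. Nuclei with 2 or more *Gfap* UMIs made up 2.02% of astrocytes and 0.0324% of neurons.

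**Figure D1:**
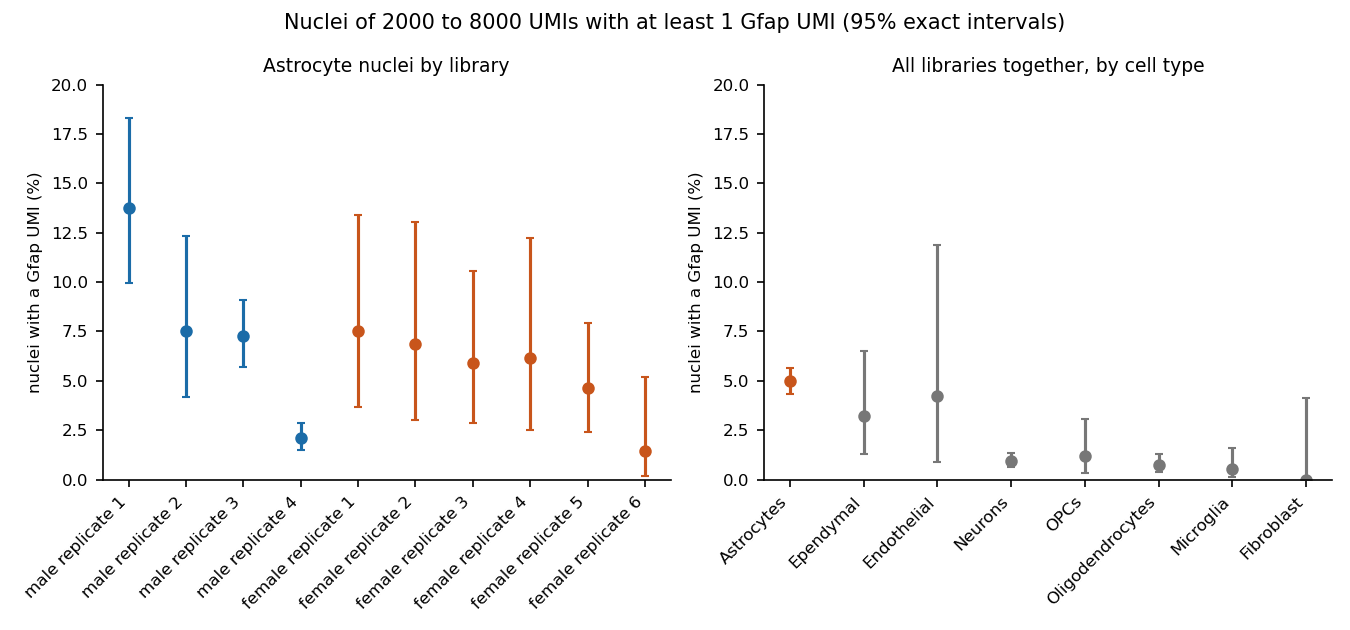
Percent of nuclei of 2000 to 8000 UMIs with at least 1 *Gfap* UMI, for astrocytes in each library (left; blue, male; orange, female) and for each cell type with all libraries together (right). Points are shares and bars are 95% exact binomial intervals; astrocytes lie at 4.97% and neurons at 0.94%, and the libraries spread from 1.46 to 13.7%.

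Across libraries the Gfap-positive share was 6.31 ± 3.39% (mean ± SD, n = 10). In the male libraries it was 13.7% in replicate 1, 7.53% in replicate 2, 7.26% in replicate 3 and 2.11% in replicate 4. The intervals of male replicate 1 (9.95 to 18.3%) and male replicate 4 (1.51 to 2.86%) did not overlap, so libraries of 1 set differed beyond counting error. In the female libraries the shares were 7.52, 6.84, 5.88, 6.14, 4.62 and 1.46% in replicates 1 to 6. With each nucleus thinned to 2000 UMIs the share was 5.66% on average in male and 4.43% in female libraries (difference 1.22 percentage points, two-sided exact permutation p = 0.476 over 210 splits), and without thinning 7.66 against 5.41% (p = 0.343). The authors' clusters Astrocytes (1) and Astrocytes (2) held Gfap-positive nuclei at 4.65% (174 of 3743) and 7.29% (38 of 521) with all libraries together, where the mix of libraries differed between the clusters. With nuclei pooled over the female libraries the shares were close, 5.02% (23 of 458) and 5.50% (26 of 473, 3.62 to 7.95%). The single female libraries did not agree. The share in Astrocytes (2) was lower in female replicates 1 and 2 and higher in female replicates 3 to 6. In female replicate 2, 7 of 58 nuclei of Astrocytes (1) and 1 of 59 of Astrocytes (2) were Gfap-positive. In female replicate 4 these were 1 of 51 and 6 of 63. Pooled over the male libraries the shares were 4.60% (151 of 3285) and 25.0% (12 of 48, 13.6 to 39.6%). In male replicates 1 to 4, Astrocytes (2) held 3 of 5, 1 of 20, 7 of 21 and 1 of 2 Gfap-positive nuclei. Astrocytes (1) held 36 of 279, 13 of 166, 63 of 943 and 39 of 1897. The share in Astrocytes (2) was thus lower in male replicate 2 and higher in male replicates 1, 3 and 4. Male replicates 1 and 4 had very few such nuclei, and the difference between the clusters was not tested.

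For the comparison of other genes the UMIs of each group were summed within each library, and a library entered when it had at least 10 nuclei of each group. This left 7 libraries, the 4 male ones and female replicates 1, 3 and 5, with 195 Gfap-positive and 3701 Gfap-negative nuclei. The sums held from 28935 to 294313 UMIs in the positive and from 391318 to 5701178 in the negative group, so the levels of the positive group carry the larger error. The nuclei of the groups were alike in depth: the library medians averaged 3507 UMIs in positive and 3584 UMIs in negative nuclei (difference -77.1 ± 424, mean ± SD, n = 7, two-sided exact sign-flip permutation p = 0.625). Genes per nucleus differed by 2.21 ± 133 (n = 7, exact permutation p = 0.984), and mitochondrial transcripts by -0.239 ± 0.356 percentage points (n = 7, exact permutation p = 0.203; the smallest p that 7 libraries allow is 0.0156).

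Gfap-positive astrocyte nuclei held more RNA of the water channel *Aqp4*, the amino acid carriers *Slc38a1* and *Slc6a6* and the secreted factors *Pdgfd* and *Angpt1*. They held less RNA of the hedgehog receptor *Ptch1*, the AMPA receptor subunits *Gria1* and *Gria2*, the glutamate transporter *Slc1a3* and the glypican *Gpc5*. Of 6148 genes tested, 283 were called at an adjusted p under 0.05 (edgeR's quasi-likelihood test, Benjamini-Hochberg) and a log2 fold change beyond 0.5, which is 4.6% of the genes tested. The calls were 140 higher (2.28%) and 143 lower (2.33%) in Gfap-positive nuclei, and 838 genes had an unadjusted p under 0.05. With RLE scaling in place of TMM the split was 172 higher and 108 lower, and with no scaling beyond the totals 178 and 102, so the balance of directions depended on the scaling. Among the called genes 121 had the same sign in 7 of 7 libraries (42.8%, against 5.4% of all genes tested), 225 in at least 6 and 58 in fewer. The calls were made on these same libraries, so the higher share follows in part from the choice of genes. Male replicate 1 weighed most: without it 166 genes were called, 155 of them among the 283.

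The glutamine and neutral amino acid transporter *Slc38a1* (mm10 chr15:96571418-96642913, minus strand) stood at 1641, 1094, 919 and 672 CPM in the Gfap-positive sums of male replicates 1 to 4 and at 378, 273 and 830 CPM in female replicates 1, 3 and 5 (median 830). The negative sums of the same libraries held 286, 216, 287 and 176 CPM, and 167, 134 and 189 CPM (median 189). Male replicate 1 was highest, and the groups overlapped where the lowest female positive sum lay under the highest male negative ones. In 7 of 7 libraries the positive sum was higher, by 1.99 on the log2 scale (SE 0.13, adjusted p = 4.5e-43). It was found in 57.8 ± 17.8% of positive and 22.9 ± 5.27% of negative nuclei. *Slc6a6*, the taurine transporter, stood at 141 ± 78.2 against 40.3 ± 15.4 CPM (1.93, SE 0.22, adjusted p = 1.2e-14, 7 of 7). In female replicate 1 it stood at 34.4 against 24.2 CPM, where 1 UMI in the positive sum is about 34.6 CPM before TMM scaling. Both genes code for carriers of small amino acids across the plasma membrane.

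*Aqp4*, the water channel of astrocyte endfeet, stood at 1623, 2494, 1430 and 1022 CPM in the positive sums of male replicates 1 to 4 and at 1307, 1127 and 1991 CPM in female replicates 1, 3 and 5. The negative sums held 440.3, 787, 463 and 406 CPM, and 1026, 808 and 679 CPM. All libraries were higher in the positive sum; the male negative sums were mostly below the female ones, and the groups overlapped by a small margin, 1022 in a positive against 1026 CPM in a negative sum. The log2 fold change was 1.37 (SE 0.11, adjusted p = 1.4e-30), and the share of nuclei with an *Aqp4* UMI was 79.7 ± 11.7% against 58.3 ± 11.3%. In a sum, more RNA per nucleus and more nuclei with the RNA cannot be told apart.

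*Pdgfd*, *Angpt1* and *Cnmd* code for secreted proteins. *Pdgfd* (mm10 chr9:6168584-6378850, plus strand), a platelet-derived growth factor, ranged from 273 to 1358 CPM in positive sums (median 550) and from 107 to 263 CPM in negative ones (median 155). Its groups did not overlap, as for 0.52% of the genes tested, and the log2 fold change was 1.99 (SE 0.14, adjusted p = 4.4e-39). *Angpt1*, the ligand of the endothelial receptor Tie2, stood at 359 ± 172 against 114 ± 26.9 CPM (1.67, SE 0.16, adjusted p = 3.8e-22, 7 of 7 libraries). *Cnmd*, which encodes the secreted protein chondromodulin, stood at 165 ± 68.1 against 47.5 ± 10.8 CPM (1.86, SE 0.22, adjusted p = 2.3e-14, 7 of 7), with female replicate 3 nearly level at 34.1 against 31.2 CPM. *Padi2*, an enzyme that turns arginine in proteins into citrulline, stood at 135 ± 108 against 31.3 ± 20.8 CPM (2.25, SE 0.24, adjusted p = 1.7e-17, 7 of 7). In female replicates 1 and 3 it stood at 34.4 and 34.1 CPM in positive against 18.2 and 22.3 CPM in negative sums. There 1 UMI is about 34.6 and 31.4 CPM before TMM scaling. These positive sums, and that of *Cnmd* in female replicate 3, thus rest on about 1 UMI each.

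The potassium channel genes *Kcnj3* (GIRK1) and *Kcnq3* (an M-current subunit) and the alpha-catenin *Ctnna2* completed the 10 named genes that were higher, each in 6 of 7 libraries. *Kcnj3* ranged from 0 to 392 CPM in positive and from 6.06 to 61.0 CPM in negative sums (2.54, SE 0.23, adjusted p = 3.8e-24), and *Kcnq3* from 0 to 398 and from 36.3 to 187 CPM (1.43, SE 0.17, adjusted p = 8.6e-14). The library that went the other way was female replicate 3 for *Kcnj3* and *Ctnna2* (137 against 256 CPM for the latter) and female replicate 1 for *Kcnq3*. These sums hold 10 positive nuclei each. In female replicate 1 *Kcnj3* was higher, at 34.4 against 6.06 CPM, on about 1 UMI in the positive sum. *Ctnna2* stood at 899 ± 583 against 410 ± 186 CPM (1.12, SE 0.12, adjusted p = 6.2e-16).

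**Figure D2:**
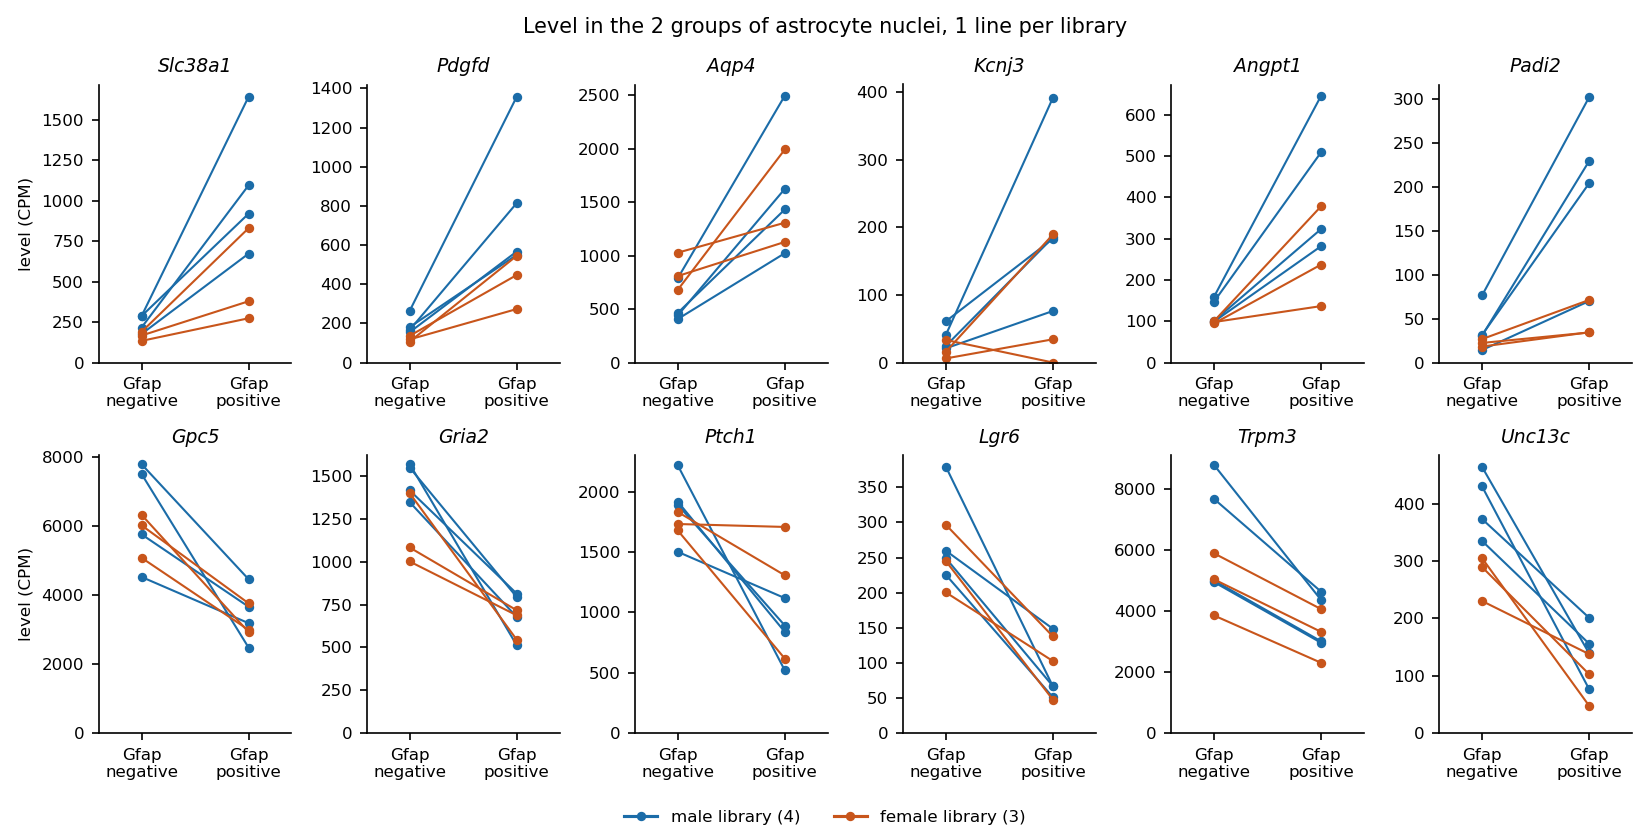
Level in CPM (linear axes from 0) of the 6 higher and 6 lower named genes with the smallest p in the sums of Gfap-negative and Gfap-positive astrocyte nuclei, 1 line per library (blue, 4 male; orange, 3 female). All lines rise in the upper row except that of female replicate 3 for *Kcnj3*, and all lines fall in the lower row.

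Among the genes that were lower, *Gpc5* (mm10 chr14:115092215-116525179, plus strand), a glypican of the cell surface, had the smallest p. Its positive sums held 2474, 3181, 3658 and 4454 CPM in male replicates 1 to 4 and 2923, 3756 and 2987 CPM in female replicates 1, 3 and 5. The negative sums held 7506, 4521, 5755 and 7787 CPM, and 6322, 6017 and 5076 CPM. The groups did not overlap, and the gap was widest in male replicate 1. The log2 fold change was -0.88 (SE 0.09, adjusted p = 2.4e-17). Nearly all negative nuclei showed a *Gpc5* UMI at 2000 UMIs (96.5 ± 2.00%), against 74.6 ± 13.7% of positive ones.

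*Gria2* (mm10 chr3:80681450-80802835, minus strand), the AMPA receptor subunit that keeps the channel from passing calcium, ranged from 513 to 814 CPM in positive sums (median 688) and from 1002 to 1571 CPM in negative ones (median 1402). These groups did not overlap either (-1.05, SE 0.12, adjusted p = 1.7e-15). The same was true of *Lgr6*, a receptor for R-spondins, with 47.4 to 148 CPM against 200 to 379 CPM (-1.72, SE 0.21, adjusted p = 9.6e-14), of *Unc13c*, a vesicle priming protein, with 123 ± 51.5 against 347 ± 81.8 CPM (-1.38, SE 0.18, adjusted p = 4.0e-12), and of *Megf11*, a membrane protein with EGF-like repeats, with 204 ± 59.3 against 467 ± 152 CPM (-1.17, SE 0.16, adjusted p = 7.2e-11). *Lgr6* RNA was found in 14.6 ± 5.06% of positive and 32.8 ± 6.36% of negative nuclei.

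*Slc1a3*, the glutamate transporter GLAST, ranged from 1020 to 3313 CPM in positive sums (median 2214) and from 2379 to 4463 CPM in negative ones (median 3582). It was lower in every library although the groups overlapped (-0.73, SE 0.10, adjusted p = 4.2e-11), and 88.9 ± 9.89% of positive nuclei still showed it, against 96.9 ± 2.22%. The cation channel *Trpm3* (-0.74, SE 0.09, adjusted p = 1.1e-12), the potassium channel *Kcnd2* (-0.74, SE 0.10, adjusted p = 1.5e-11), the glycosyltransferase *Mgat4c* (-0.80, SE 0.11, adjusted p = 8.1e-10) and *Itih3*, an inter-alpha-trypsin inhibitor heavy chain (-0.80, SE 0.12, adjusted p = 5.7e-09), were lower in 7 of 7 libraries. *Tmtc2* was lower in 6 of 7 (-0.86, SE 0.12, adjusted p = 5.9e-11).

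The 22 named genes kept their direction in each fit that tested them (15 were tested with depth-matched nuclei and 18 in female libraries alone), and each of the fits that left out 1 library called all 22. These fits reuse nuclei on which the genes were chosen, so this follows in large part from the choice. With no replicate block 13 of the 22 were called, and in female libraries alone 5 of 18. Female replicates 2 and 4, with 8 and 7 Gfap-positive nuclei, had no part in the choice of these genes. In female replicate 2 all 22 had the sign of the fit, and in female replicate 4, 16 of the 22. The genes with the other sign in female replicate 4 were *Kcnj3*, *Padi2*, *Ctnna2*, *Cnmd*, *Kcnq3* and *Megf11*. Of the 270 called genes that could be read there, 227 (84.1%) had the sign of the fit in female replicate 2 and 180 (66.7%) in female replicate 4, where 56.5% and 54.1% of all genes read did so. Called lower genes kept the sign more often than called higher ones. The counts were 124 of 136 against 103 of 134 in female replicate 2, and 104 of 136 against 76 of 134 in female replicate 4. In the positive nuclei 1 UMI is about 49.4 CPM in female replicate 2 and 31.5 CPM in female replicate 4. A gene with no UMI there, but some in the negative nuclei, counts as lower. How many of all genes read were lower was not counted, so this difference has no background beside it. It was not tested.

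The contrast was compared between the sets by an interaction term. At an adjusted p under 0.05 (edgeR's quasi-likelihood test) 2 of 6148 genes differed, 0.0325% of the genes tested, and 361 had an unadjusted p under 0.05. None of the 22 named genes was among the 2. *Zfp949*, a zinc finger gene, had a log2 fold change higher by 2.41 in female libraries (SE 0.48, adjusted p = 0.0029), and *Hivep2*, a zinc finger transcription factor, one lower by 1.88 (SE 0.44, adjusted p = 0.049). With 3 female libraries of 10 to 12 positive nuclei the test could see only wide differences. Female libraries alone called 13 genes and male libraries alone 329.

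The number of *Gfap* UMIs was followed in male replicates 1, 3 and 4, the libraries with at least 10 nuclei at both 1 and at 2 or more UMIs (2998 nuclei with 0, 89 with 1 and 60 with 2 or more). For all 22 named genes the mean level at 1 UMI lay between those at 0 and at 2 or more. *Kcnj3* stood at 37.3 ± 16.0, 142 ± 72.9 and 345 ± 118 CPM (mean ± SD, n = 3 libraries, without TMM scaling), and *Aqp4* at 388 ± 30.0, 853 ± 263 and 1665 ± 504 CPM. *Lgr6* fell away from 262 ± 58.5 over 126 ± 41.6 to 16.8 ± 14.9 CPM, *Ptch1* from 1666 ± 303 over 1036 ± 241 to 337 ± 273 CPM, and *Gria2* from 1322 ± 85.6 over 817 ± 80.3 to 254 ± 137 CPM. Nuclei with 2 or more UMIs lay beyond those with 1 in all 3 libraries for 19 of the 22 genes, in 2 libraries for *Padi2* and *Slc1a3* and in 1 for *Cnmd*. Among the called list genes *Lfng*, *Smad3* and *Fgfr3* did not keep this order. *Lfng* stood at 118, 70.9 and 74.2 CPM, *Smad3* at 153, 71.4 and 84.6 CPM and *Fgfr3* at 373, 253 and 266 CPM. The named genes were chosen on sums that contain the nuclei with 1 and with 2 or more UMIs, so all steps are a description. The step from 1 to 2 or more was not tested.

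**Figure D3:**
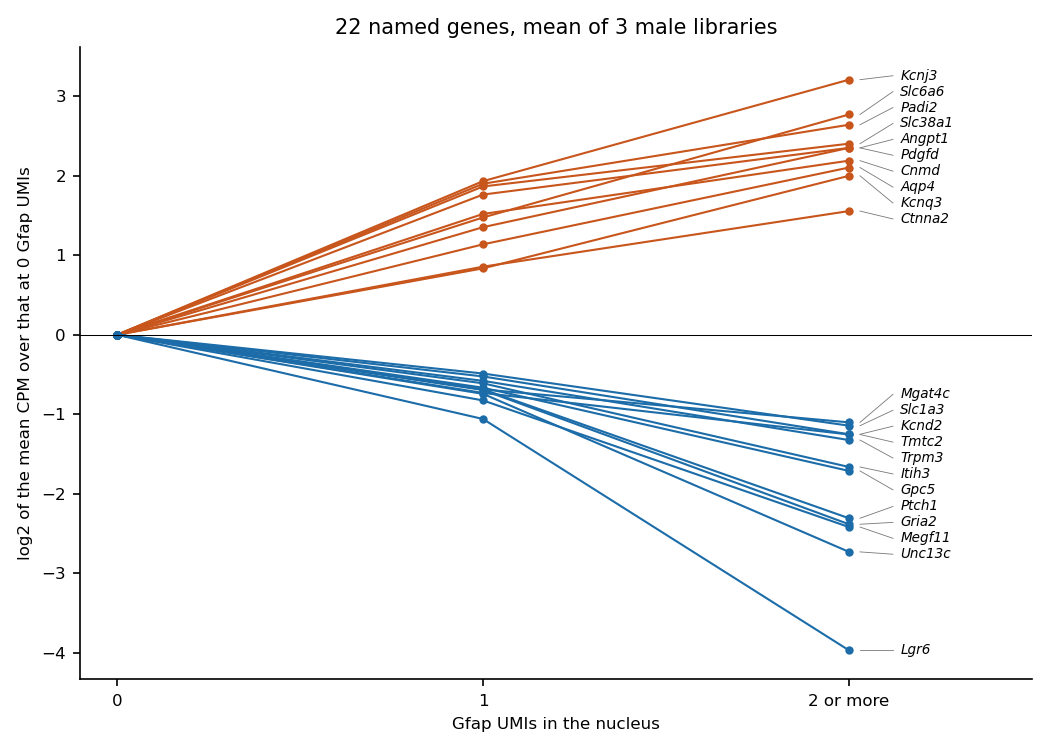
Mean CPM of each of the 22 named genes at 0, 1 and 2 or more *Gfap* UMIs, as log2 of its ratio to the mean at 0, over male replicates 1, 3 and 4 (orange, genes higher in Gfap-positive nuclei; blue, lower). Every line goes on in its direction from 1 to 2 or more; *Kcnj3* ends highest and *Lgr6* lowest.

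Of the list of endfoot, gap junction and potassium buffering genes, 18 of 19 were tested, and *Aqp4* and *Mlc1* were higher and *Kcnj10* lower. The median log2 fold change of the list was -0.04, beside -0.03 for all genes tested, of which 2.28% were called higher and 2.33% lower. *Mlc1*, a membrane protein of endfeet, stood at 342 ± 158 against 231 ± 61.4 CPM (0.55, SE 0.15, adjusted p = 0.011). It was higher in 6 of 7 libraries but lost its call without male replicate 2 (0.47), male replicate 3 (0.54) or female replicate 5 (0.50). *Kcnj10*, the channel Kir4.1, stood at 526 ± 298 against 755 ± 162 CPM (-0.72, SE 0.13, adjusted p = 4.5e-06), lower in 6 of 7 libraries, and was at -0.45 without male replicate 1. DESeq2 did not call *Kcnj10* (-0.63). The anchoring and junction genes beside them were not called: *Gja1* had a log2 fold change of 0.11, *Dag1* of 0.21 and *Gjb6* of -0.43. *Aqp4* and *Kcnj10*, both genes of the endfoot membrane, had fold changes of opposite sign.

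Where 2.28% of all genes tested were called higher and 2.33% lower, the glutamate, GABA and glycine handling list had all 18 genes tested. Its median was -0.25, with 1 higher (*Slc38a1*) and 4 lower. Besides *Slc1a3*, these were the GABA transporter *Slc6a11* (2150 ± 564 against 2940 ± 357 CPM, -0.51, SE 0.10, adjusted p = 1.3e-05, 7 of 7 libraries), glutamine synthetase *Glul* (466 ± 264 against 649 ± 321 CPM, -0.51, SE 0.13, adjusted p = 0.0048, 7 of 7) and the amino acid exchanger *Slc7a10* (347 ± 200.2 against 493 ± 115 CPM, -0.80, SE 0.15, adjusted p = 7.9e-06, 5 of 7). DESeq2 called neither *Slc7a10* (-0.66) nor *Glul* (-0.43) nor *Slc6a11* (-0.41). *Glul* and *Slc6a11* lay near the threshold on size: without male replicate 1 they stood at -0.38 and -0.42, without male replicate 2 at -0.47 and -0.50, and with RLE scaling at -0.43 and -0.42, none of them called.

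The Shh list gave calls in 1 direction alone. All 9 of its 12 genes that were tested had a negative log2 fold change (median -0.34, beside -0.03 for all genes tested). Of them 2 were called lower, the receptor *Ptch1* and the decoy receptor *Hhip*, which are themselves induced by the pathway. Over all genes tested 2.33% were called lower, and the share with a negative fold change was not counted. *Ptch1* ranged from 519 to 1707 CPM in positive sums (median 891) and from 1501 to 2219 CPM in negative ones (median 1832), and was -0.997 on the log2 scale (SE 0.11, adjusted p = 1.9e-15). It was lower in 7 of 7 libraries, though in female replicate 3 by little, 1707 against 1732 CPM. *Hhip* (17.0 ± 14.0 against 41.7 ± 11.4 CPM, -1.49, SE 0.42, adjusted p = 0.011) rested on 11 positive UMIs and was lower in 5 of 7 libraries. It passed the filter on low counts mainly through its negative sums. Without male replicate 1 it stood at -1.50 and was not called. *Gli1*, another target of the pathway, had -0.72 (adjusted p = 0.052) and *Smo*, its signal transducer, -0.15. RNA of the ligand *Shh* was counted 1 time in positive and 22 times in negative nuclei (0.529 against 1.73 CPM on average) and was not tested. The direction shared by the tested genes did not hold for all that the filter left out. In the fit without the filter *Cdon* was at 2.29 (SE 0.78, adjusted p = 0.11, 9 and 27 UMIs), *Shh* at -0.30 and *Kif7* at -0.28, none of them called.

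In the Notch list 13 of 17 genes were tested (median -0.14) and 2 were lower, where 2.33% of all genes tested were called lower. These were the target *Heyl* (18.1 ± 24.5 against 50.7 ± 12.4 CPM, -1.76, SE 0.44, adjusted p = 0.0028, 7 of 7 libraries) and the glycosyltransferase *Lfng* (140 ± 58.4 against 223 ± 92.3 CPM, -0.69, SE 0.20, adjusted p = 0.014, 7 of 7). *Heyl* rested on 9 positive UMIs. It passed the filter mainly through its negative sums, at 31.4 to 69.6 CPM against a positive median of 14.8 CPM. Without male replicate 1 *Heyl* and *Lfng* stood at -1.32 and -0.61 and were not called, nor was *Lfng* without male replicate 3 (-0.69). The receptors *Notch1* (0.09) and *Notch2* (0.08) did not pass.

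In the BMP and TGF-beta list 16 of 26 genes were tested and 12 of them had a positive fold change (median 0.30, the highest of the 13 lists). The median over all genes tested was -0.03, with 2.28% called higher and 2.33% called lower. The BMP targets *Id1* and *Id4* were called higher and *Smad3*, a signal carrier of TGF-beta, lower. *Id1* stood at 57.0 ± 36.3 against 25.9 ± 20.1 CPM (1.70, SE 0.33, adjusted p = 1.6e-05) and *Id4* at 251 ± 110 against 160 ± 60.5 CPM (0.84, SE 0.17, adjusted p = 4.6e-05), each in 6 of 7 libraries. *Id2* (0.32) and *Id3* (0.44) were not called. *Smad3* (94.3 ± 53.4 against 136 ± 60.8 CPM, -0.84, SE 0.22, adjusted p = 0.0056) was not called without male replicate 1 (-0.60) or male replicate 3 (-0.73), and stood at 0.06 in female libraries alone.

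Of 8 tested genes of the JAK-STAT and gp130 list, the receptor subunit *Il6st* (gp130) was higher (0.65, SE 0.18, adjusted p = 0.012, 6 of 7 libraries), but not without male replicate 1 (0.57), male replicate 3 (0.64) or male replicate 4 (0.53). Among 21 tested transcription factors of astrocytes and glia, *Id4* and *Glis3* (419 ± 247 against 273 ± 111 CPM, 0.67, SE 0.14, adjusted p = 0.00013, 7 of 7 libraries) were higher and none was called lower. In the fit without the filter on low counts *Glis3* was not called (0.46). No gene of the 9 tested for metallothioneins and metal handling was called. The shares over all genes tested, 2.28% higher and 2.33% lower, stand beside these counts, so no call among 9 genes says little.

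The lipid and cholesterol list had 26 of 28 genes tested and 3 called, all higher, against a list median of -0.08. Of all genes tested 2.28% were called higher. *Clu*, clusterin, stood at 2148 ± 949 against 1297 ± 550.0 CPM (0.79, SE 0.10, adjusted p = 4.0e-12) and *Apoe*, the lipid carrier of astrocytes, at 14721 ± 7450 against 10362 ± 5531 CPM (0.57, SE 0.09, adjusted p = 6.2e-09), each in 7 of 7 libraries. *Apoe* was at 0.49, under the threshold on size, without male replicate 3. The fatty acid binding protein *Fabp7* (0.62, SE 0.20, adjusted p = 0.043) lost its call without male replicate 1 (0.43), 3 (0.39) or 4 (0.58) and without female replicate 3 (0.65) or 5 (0.55). In the list of glycogen and energy genes 16 were tested and the lactate carrier *Slc16a1* was higher (1.15, SE 0.30, adjusted p = 0.0050), in 4 of 7 libraries; without male replicate 1 it was not called (0.85).

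The receptor list had 26 of 39 genes tested, with *Gabra2* higher and 5 lower, among them the AMPA receptor subunits *Gria1* and *Gria2*. The shares called over all genes tested were 2.28% higher and 2.33% lower. *Gria1* stood at 2659 ± 537 against 4090 ± 1237 CPM (-0.62, SE 0.10, adjusted p = 2.4e-08, 7 of 7 libraries) and was at -0.47 without male replicate 1. The GABA receptor subunits moved apart, *Gabra2* at 0.67 (SE 0.17, adjusted p = 0.0019, 5 of 7 libraries) and *Gabrg1* at -0.59 (SE 0.19, adjusted p = 0.038, 6 of 7). *Fgfr3* (-0.52) and the calcium release channel *Itpr2* (-0.57) were lower as well. Without male replicate 1 none of these 4 was called (*Gabra2* 0.34, *Gabrg1* -0.37, *Fgfr3* -0.47, *Itpr2* -0.50), *Gabrg1* was not without male replicate 3 (-0.59) or female replicate 5 (-0.57), and *Itpr2* not without female replicates 3 or 5 (-0.51 each), nor *Fgfr3* without female replicate 3 (-0.49).

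Of the secreted and contact synapse genes 15 of 25 were tested (median -0.07), and 2 were higher and *Gpc5* lower, where 2.28% and 2.33% of all genes tested were. The matrix protein tenascin-R, *Tnr* (109 ± 95.3 against 46.5 ± 20.6 CPM, 1.43, SE 0.23, adjusted p = 6.6e-08, 5 of 7 libraries), and *Tenm4* (0.63, SE 0.18, adjusted p = 0.015, 6 of 7) were higher. *Tenm4* was not called without male replicate 1 (0.52) or male replicate 4 (0.50).

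Of the 30 list genes called, 26 were also called with RLE scaling, 22 without the filter on low counts, 4 with no replicate block, and 16 of the 27 with an adjusted p by DESeq2. Besides those named above, DESeq2 did not call *Lfng* (-0.61), *Smad3* (-0.68), *Fabp7* (0.64), *Fgfr3* (-0.45), *Gabra2* (0.64), *Gabrg1* (-0.48) or *Itpr2* (-0.53). The fit without the filter did not call *Mlc1* (0.34), *Tenm4* (0.45), *Il6st* (0.45), *Apoe* (0.34), *Fabp7* (0.39), *Slc16a1* (0.96) or *Gabra2* (0.47), and RLE scaling left out *Fgfr3* (-0.45) and *Gabrg1* (-0.54).

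**Figure D4:**
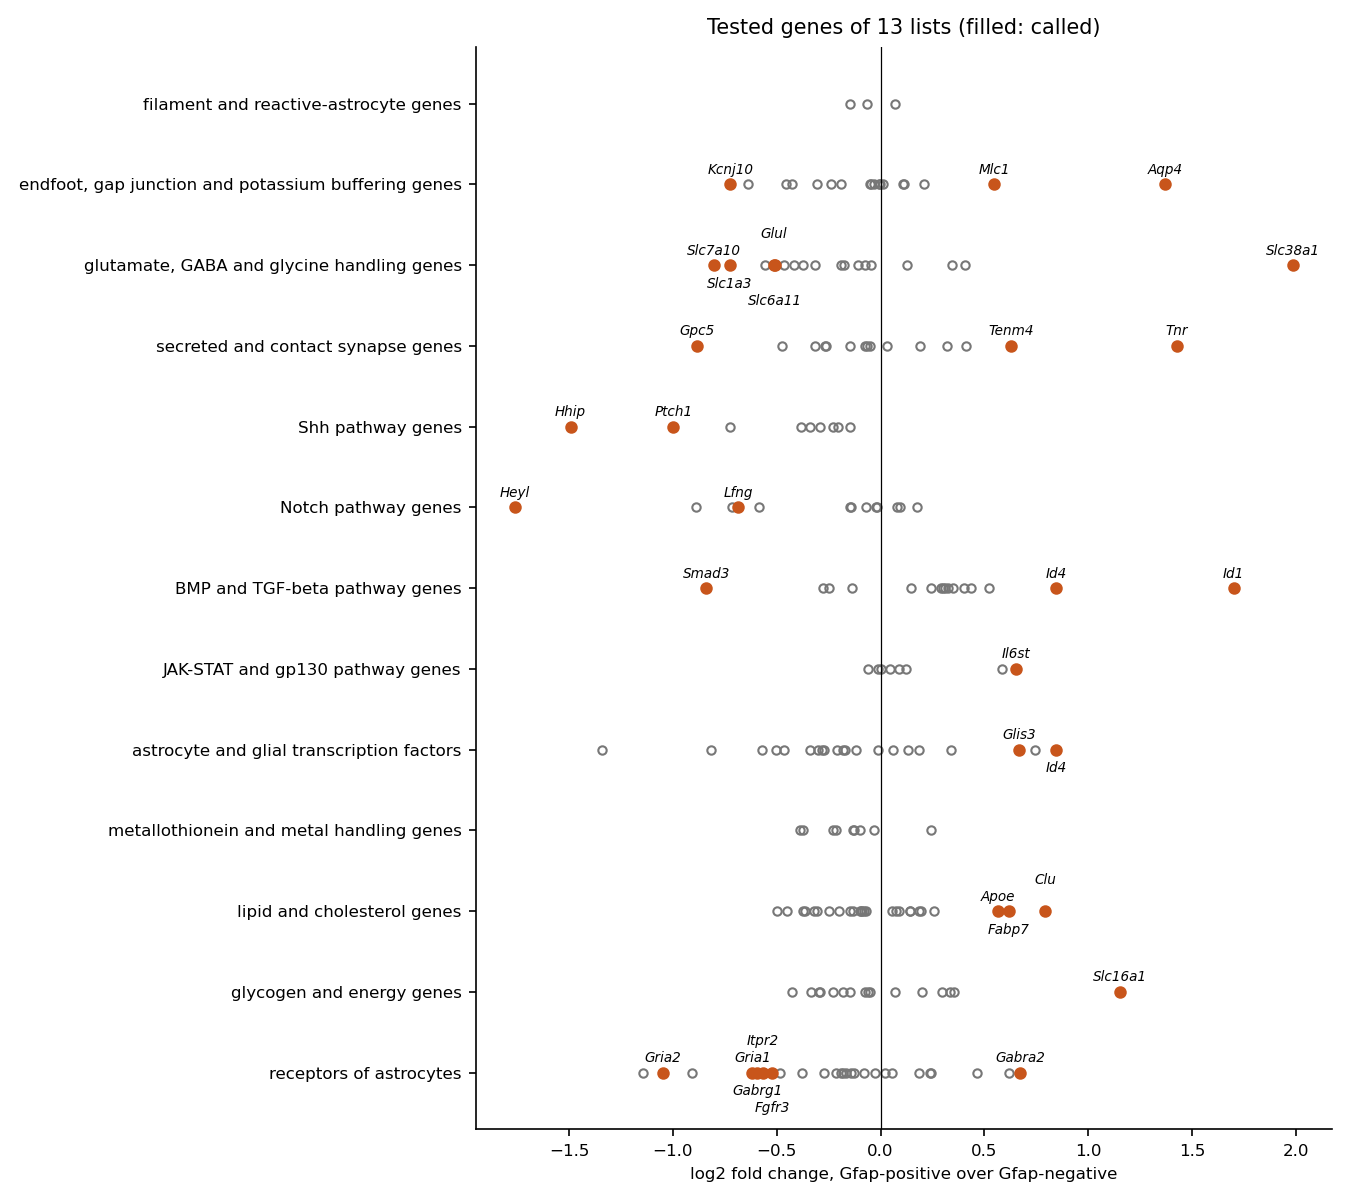
Log2 fold change, Gfap-positive over Gfap-negative, of the tested genes reported from 13 lists; filled points with names are called, open points are not. All 9 tested Shh pathway genes lie left of 0, and 12 of 16 BMP and TGF-beta genes lie right of it. The median over all genes tested was -0.03.

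Of the list of filament and reactive-astrocyte genes, 3 of 39 passed the filter on low counts (*S100b* 0.07, *Vcam1* -0.07 and *Aldoc* -0.15). None was called, where 4.6% of all genes tested were. The filter asks for a minimum level in enough of the sums, so few UMIs are not the only ground for leaving a gene out. *C4b*, with 99 positive UMIs, did not pass: its negative sums reached at most 24.3 CPM and its lowest positive sum was 0. *Heyl*, with 9 positive UMIs, was tested. In the fit without the filter, where the median of all genes was -0.31, 5 of 35 genes of the list were higher and none was lower. There 0.709% of all genes were called higher and 1.34% lower. *C4b*, the complement component C4, stood at 108 ± 71.0 against 15.6 ± 7.49 CPM with 99 and 190 UMIs (2.82, SE 0.27, adjusted p = 1.2e-22, 6 of 7 libraries). The filament gene *Vim* had 19 and 64 UMIs (1.82, SE 0.45, adjusted p = 0.0047, 5 of 7), the protease inhibitor *Serpina3n* 25 and 78 UMIs (1.88, SE 0.41, 5 of 7), *Ggta1* 48 and 224 UMIs (1.53, SE 0.31, 5 of 7) and the copper protein *Cp* 13 and 56 UMIs (1.85, SE 0.56, 4 of 7). *Cd44* had 1.19 (adjusted p = 0.052), and *Lcn2*, *Cxcl10*, *Steap4* and *Des* had no UMI in either group. In the other lists 5 genes that the filter had left out were called in this fit. Tenascin-C, *Tnc* (77.1 ± 53.0 against 21.3 ± 10.3 CPM, 1.90, SE 0.27, adjusted p = 1.5e-09, 6 of 7), the matrix protein *Thbs4* (11 and 17 UMIs, 2.73, SE 0.80, adjusted p = 0.032, 3 of 7) and the ligand *Bmp6* (21 and 51 UMIs, 2.60, SE 0.50, adjusted p = 3.2e-05, 4 of 7) were higher. The ligand *Bmp7* (8 and 354 UMIs, -1.67, SE 0.48, adjusted p = 0.024, 6 of 7) and the transcription factor *Etv4* (5 and 353 UMIs, -2.24, SE 0.54, adjusted p = 0.0027, 7 of 7) were lower.

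Markers of other cell types were read in the same sums. The summed level of 10 neuron markers was 1184 ± 713 CPM in positive and 1091 ± 609 CPM in negative sums, and that of 10 oligodendrocyte markers 359 ± 124 against 346 ± 76.4 CPM, and none of the tested ones was called. For 10 ependymal markers it was 190 ± 76.0 CPM (103 to 332) against 138 ± 32.2 CPM (108 to 189), higher in 4 of 7 libraries, and 1 of them, *Spag16*, a gene of the cilium axoneme, was called higher (83.9 ± 60.6 against 44.2 ± 11.7 CPM, 1.13, SE 0.25, adjusted p = 0.00035, 6 of 7). The other 9 ependymal markers were too low to be tested, with 2 to 34 UMIs each in positive nuclei, and none was at 0. Among them *Tmem212* had 2 UMIs in positive and 62 in negative nuclei, *Foxj1* 5 and 52, *Rsph1* 7 and 44 and *Dnah9* 10 and 68. The negative sums hold far more UMIs in all, so these counts are not levels. The mean levels were 7.02 against 12.7 CPM for *Tmem212* and 7.69 against 8.82 CPM for *Foxj1*. They were 12.7 against 7.64 CPM for *Rsph1* and 8.11 against 6.58 CPM for *Dnah9*. For 10 OPC markers the sum was 583 ± 241 against 631 ± 170 CPM; *Lhfpl3* was called higher (0.86, SE 0.18, adjusted p = 7.5e-05, 6 of 7), and *Gpr17* and *Neu4* were at 0 in positive nuclei. Microglia markers (220 ± 177 against 209 ± 128 CPM, *Trem2* at 0), endothelial and pericyte markers (106 ± 74.1 against 110 ± 22.1 CPM, *Ly6c1*, *Rgs5* and *Kcnj8* at 0) and fibroblast markers (176 ± 59.3 against 237 ± 29.4 CPM, *Dcn*, *Slc6a13*, *Lum* and *Slc47a1* at 0) held no called gene among the 2, 1 and 3 that could be tested. As 4.6% of all genes tested were called, no call among so few markers, those of neurons and oligodendrocytes included, says little. In the fit without the filter the endothelial gene *Slco1a4* was higher (3.94, SE 0.69, adjusted p = 1.9e-06), with 25 positive UMIs, all in 1 library, and 12 negative ones. Without the nuclei highest in such markers 6 libraries with 154 Gfap-positive nuclei remained. There 241 genes were called, 216 of them the same, all 22 named genes among them, and *Spag16* stood at 0.90 and was not called. *Spag16* is itself among the markers by which nuclei were left out, so its lost call does not tell which cells carried it. The part of these cells in the result was not tested beyond this.

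The motif TTCNNNGAA, the site bound by STAT factors, which act on *Gfap*, was searched in RefSeq promoters (GRCm38.p6, 250 bases before to 50 after a gene's start, 1 window for each gene; the motif reads alike on both strands). It lay in 5 of 101 promoters of called higher genes (4.95%) and 6 of 111 of called lower genes (5.41%), beside 6.05% for the genes tested and 8.47% for all promoters. TTGGC, a NFI half-site read on both strands, lay in 45.5% and 47.7%, beside 50.1% and 47.0%. The stretches of *Gfap* and of *Slc1a3* that hold the STAT motif are shown because they belong to the gene that defines the groups and to a named gene; capitals mark the match, at bases -2 to 7 and -96 to -88 from the start. A match is no evidence of binding.
*Gfap*, chr11:102897184-102897262, minus strand: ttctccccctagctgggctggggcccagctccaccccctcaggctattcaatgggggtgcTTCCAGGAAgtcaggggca
*Slc1a3*, chr15:8710885-8710963, minus strand: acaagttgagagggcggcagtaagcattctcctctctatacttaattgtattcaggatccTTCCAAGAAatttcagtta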

How the data were processed

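Single-nucleus RNA was counted in 10 libraries (10x Genomics). The matrix the authors deposited gives UMI counts, not normalized, for 33502 genes and 20503 nuclei, made with Cell Ranger (6.1.1 and mm10 per the labels' processing notes; the methods name another version). The percent of mitochondrial transcripts and the cluster names were deposited by the authors, who left out nuclei with under 200 genes or over 5% mitochondrial transcripts and clusters called doublets; male nuclei are DoubletFinder singlets by the metadata, and no doublet caller was run again here. Matrix sums equalled the deposited UMI totals in all 20503 nuclei.

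Astrocyte nuclei of 2000 to 8000 UMIs were split by *Gfap*, and UMIs were added up per library and group where a library had 10 nuclei or more of each. The test was edgeR 4.0.16's quasi-likelihood test (glmQLFit and glmQLFTest under R 4.3.3, with TMM scaling, filterByExpr, the library as a block and Benjamini-Hochberg adjustment); DESeq2 1.42.0 was an alternative. SEs are the log2 fold change over the square root of F. The groups are paired because each library gives both. The methods describe pools of 4 mice for 4 samples, and no label says whether the libraries share animals or days. The p-values therefore measure at most the spread between these libraries. edgeR's prior degrees of freedom were 797, so these p-values rest mainly on a spread shared over all genes and less on each gene's own spread between the 7 libraries. The genes named are the 12 higher and 12 lower with the smallest p among called genes that had the sign of the fit in at least 6 of 7 libraries and a named symbol. Some genes are not reported here; they stay in the fits and in counts over all genes, but were left out of the named genes (10 higher and 12 lower remain), of the list counts and of the figures. The grouping, the 13 gene lists and the 7 marker lists were chosen with earlier results of these data known. The fit was also run on simulated counts drawn with a dispersion shared by all genes. Such counts lack each gene's own spread between libraries, so this run cannot check the p-values given here. CPM are TMM-scaled unless said otherwise. Coordinates are those of mm10 (GRCm38). Tests on single values were exact permutations in scipy 1.17.1. Nuclei were thinned without replacement. The alternatives are given at the end.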

Additional observations from a re-analysis of the deposited data

Results flagged for a closer look

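The log2 ratio of positive to negative CPM (each + 1) of the 24 genes that met the rule for naming was examined over the 4 male libraries, and the Gfap-positive share, thinned or not, over the male and the female libraries, 28 groups in all. In 3 of them 1 library stood apart, where chance marks about 1 in 20. *Trpm3* (-1.01) and *Megf11* (-2.02) were lowest in male replicate 1, away from the other 3 libraries, and *Tmtc2* (-0.42) was nearest to 0 in male replicate 4.

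The contrast differed between the sets of libraries, by the interaction term, for *Zfp949* (female minus male 2.41) and *Hivep2* (-1.88). In male libraries alone their log2 fold changes were -0.28 and 0.09, and in female libraries alone 2.26 and -1.65.

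Astrocyte nuclei outside the window of depth entered no comparison. Of 994 with fewer than 2000 UMIs, 50 held a *Gfap* UMI (5.03%, exact interval 3.76 to 6.58%), and of 44 with more than 8000 UMIs, 5 did (11.4%, 3.79 to 24.6%).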

How the results depend on the processing

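The number of called genes was 283, and stayed within 1.5 times of it in 16 of 24 alternatives. It was 482 without the filter on low counts (the median log2 fold change of all genes moved from -0.03 to -0.31), 148 with DESeq2, 107 in nuclei of 2000 to 4000 UMIs, 86 with depth-matched nuclei (697 genes tested), 115 with exactly 1 *Gfap* UMI and 13 in female libraries only. The library is the block that pairs the groups, and with no replicate block 34 genes were called, all of them among the 283. Leaving out each library in turn gave 166 to 306. Called genes of the 13 lists, those not reported here included, numbered 32: 17 with DESeq2, 56 without the filter, 4 with no replicate block, 15 in nuclei of 2000 to 4000 UMIs, 17 with depth-matched nuclei, 15 with exactly 1 *Gfap* UMI, 4 in female libraries only, and 15 to 42 leaving out each library. *Smad3* changed sign in female libraries only (0.062). The mean share was 2.63% when 2 or more *Gfap* UMIs were asked for, and 5.48 to 6.85% leaving out each library. The differences in median UMIs (-206 to -0.0833), genes (-34.8 to 31.9) and mitochondrial percent (-0.283 to -0.134) moved by less than their SD leaving out each library. The 2 genes of the interaction stayed 2 over genes counted in both sets. Astrocytes (2) alone had no library with 10 nuclei of each group and gave no value. Fits on sums of at least 5 nuclei (255 called) and without scaling beyond the totals (280) were added after the data were seen. The causes of these changes were not tested. The 10 to 70 positive nuclei per library set a limit: genes of few UMIs, much of the reactive list among them, were mostly not testable. The filter also left out genes with more UMIs, such as *C4b*, that were low in the negative sums.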

Other observations

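Some called genes outside the lists and the rule for named genes were picked after their values were seen. The kinase *Stk32a* (2.77, 5 of 7 libraries) and the metalloprotease *Adamts9* (1.78, 5 of 7) were among the 7 genes with the smallest p but did not reach 6 libraries. The secreted proteins *Slit2* (1.69, 7 of 7 libraries), *Reln* (1.64, 5 of 7) and *Igfbp5* (1.43, 6 of 7) were higher; how other genes of their kind behaved was not counted. *A2m*, by which the authors name astrocytes, was higher too (1.14, 6 of 7).

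The genes *Spef2* (0.90, 6 of 7 libraries), *Cfap74* (0.96, 5 of 7), *Ccdc114* (0.87, 7 of 7) and *Stk33* (1.05, 6 of 7), the first 3 of them known from cilia, were higher. Cilium genes as a group were not counted or tested. In the fit without the filter the ependymal markers *Tmem212* (-1.24), *Dnah12* (-1.08) and *Cfap299* (-1.47) had negative fold changes. Those of *Foxj1* (0.11), *Ccdc153* (0.09), *Rsph1* (1.02), *Dnah9* (0.99), *Cfap44* (0.42) and *Mia* (0.51) were positive, and none of these markers was called. *Ttr*, the transthyretin of the choroid plexus, was higher in 4 of 7 (1.05), while *Clic6*, another gene of the choroid plexus, was lower in 6 of 7 (-2.60). The summed ependymal markers, given above, were higher in 4 of 7 libraries; the part of such cells or of free RNA was not tested.

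Among the genes that were lower outside the lists were the growth factor *Vegfa* (-0.94, 7 of 7 libraries), the cytokine *Il33* (-1.31, 7 of 7) and the homeobox gene *Nkx6-2* (-1.93, 7 of 7).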
